A study of Mus musculus with 6 samples.

Results

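Collagens, laminins and the enzymes that cross-link or cleave them were followed in the liver of adult C57BL/6 mice, with 3 wild type and 3 Igfbp7 knockout libraries. Igfbp7 encodes a secreted protein of the insulin-like growth factor binding family. Genes were taken by symbol: collagen chains, laminin chains, Lox and the Loxl genes, the tissue inhibitors of metalloproteinases (Timp), the matrix metalloproteinases (Mmp) and the Adamts proteases. A chain listed under a symbol of another form, or not listed, is not included. The files list 22609 genes, of which 105 matched, and 60 of these had at least 10 reads in 3 or more of the 6 libraries and were compared between genotypes. Per the labels' protocols the knockout carries the deletion in both alleles, made by Cre-loxP recombination in the same pure strain. Both genotypes were untreated as far as the labels say. The labels name neither the Cre driver nor the sex, and give no age beyond adult. Nothing in the labels says that libraries of 1 genotype came from separate animals, so the p-values below measure only the spread between these samples, which may be technical.

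Extracellular matrix in the healthy liver is sparse. Fibrillar collagens are concentrated around portal tracts and central veins and are made mainly by stellate cells and portal fibroblasts, while the space between hepatocytes and sinusoids holds a loose matrix with little organised basement membrane. Laminins and type IV collagen form basement membranes around bile ducts and larger vessels. Lysyl oxidases cross-link collagen and elastin, metalloproteinases and Adamts enzymes cleave or trim matrix proteins, and Timp proteins inhibit metalloproteinases. In fibrosis, activated stellate cells make much more fibrillar collagen and Timp1.

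The upstream sequences of the 3 genes with the lowest p in the comparison, Adamts13, Col27a1 and Col15a1, are shown so that the genes can be placed. Each run is the 250 bases before the annotated start in RefSeq, build GRCm38.p6, plus strand, 5′ to 3′. RefSeq windows were found for 73 of the 105 genes. Capitals mark a match to the GC box GGGCGG, the CCAAT box CCAAT or the TATA box TATAAA on either strand.
Adamts13, chr2:26973166-26973415: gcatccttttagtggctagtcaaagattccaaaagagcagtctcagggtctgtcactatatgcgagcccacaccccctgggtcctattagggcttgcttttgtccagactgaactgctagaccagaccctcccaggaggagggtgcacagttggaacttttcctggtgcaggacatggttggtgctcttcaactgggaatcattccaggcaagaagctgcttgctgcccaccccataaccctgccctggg
Col27a1, chr4:63215162-63215411: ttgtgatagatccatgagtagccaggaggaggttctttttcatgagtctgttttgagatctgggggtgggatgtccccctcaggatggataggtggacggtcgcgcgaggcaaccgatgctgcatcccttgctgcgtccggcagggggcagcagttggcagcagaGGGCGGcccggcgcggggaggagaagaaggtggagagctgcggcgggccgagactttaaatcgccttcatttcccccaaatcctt
Col15a1, chr4:47207762-47208011: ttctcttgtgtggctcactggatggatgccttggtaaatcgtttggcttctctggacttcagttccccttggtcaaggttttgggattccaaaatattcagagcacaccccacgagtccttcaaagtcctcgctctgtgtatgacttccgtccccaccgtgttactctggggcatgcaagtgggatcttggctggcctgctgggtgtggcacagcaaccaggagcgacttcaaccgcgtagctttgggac
Col27a1 held 1 match, a GC box whose first base lies 85 bases before the start, and the other two windows held none of the 3 words. Over 27025 RefSeq windows of the same length, 32.4% held the GC box, 34.1% the CCAAT box and 13% the TATA box. A match is a run of letters and shows no binding. In RefSeq Adamts13 overlaps Gm36649, Col27a1 overlaps Gm52743 and Mir455, and Col15a1 overlaps Gm12426, Gm32317, Gm52732, Gm52733 and Gm52734. Reads of such pairs may be mixed where strand was not used.

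Libraries held 16712568 to 22419411 gene counts. Levels are given as CPM, the reads of a gene scaled to a common library size by the TMM method. Single-library values follow the order of replicates 1, 2 and 3. The targeted gene checked the labels: Igfbp7 stood at 72.4 ± 10.1 CPM in wild type libraries and 0.263 ± 0.168 CPM in knockout liver (SD, n = 3 each; log2 fold change -8.05, adjusted p = 6.01e-06 by edgeR's quasi-likelihood test). The tissue label fitted its markers, with 8 hepatocyte genes summing to 86562 to 106272 CPM in wild type libraries and 99138 to 119177 CPM in knockout libraries. Wild type replicate 1 stands apart in clock genes, since Arntl was at 17.6 CPM there and at 1.91 to 2.85 CPM elsewhere. For several matrix genes that it moves, changes are therefore given without it too. Genes outside the matrix set are given with all 6 libraries only. In bulk tissue, fewer cells of a type and less RNA per cell cannot be told apart.

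Matrix genes took a small and similar part of the RNA in both genotypes. Their share of all gene counts was 0.198% ± 0.015 in wild type libraries and 0.188% ± 0.011 in knockout liver (SD, n = 3 each). One gene held most of it. Col18a1, whose product type XVIII collagen is a basement membrane heparan sulfate proteoglycan and the source of endostatin, made up 59.8% ± 0.7 of the matrix counts in wild type libraries and 60.6% ± 7.8 in knockout liver (SD, n = 3 each). Its level was 1239, 1115 and 1131 CPM in wild type libraries and 1302, 1339 and 871 CPM in knockout libraries, so the lowest and the highest value were both in knockout libraries. Without Col18a1 the matrix genes summed to 782 ± 68 CPM in wild type libraries and 743 ± 63 CPM in knockout liver (SD, n = 3 each).

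Below Col18a1 the order of the genes was set per kilobase of exon, since longer transcripts give more reads. Col18a1 averaged 172 CPM per kilobase over the 6 libraries. Next came Mmp19, a secreted metalloproteinase, at 19.4, Mmp15, a membrane-bound one, at 14.9, and Timp3, the inhibitor that binds to the matrix itself, at 9.80 CPM per kilobase. Col14a1, a collagen that associates with fibrils, and Col5a3, a type V chain, followed at 9.69 and 9.67 CPM per kilobase, and these neighbours did not differ beyond their spread (SD of 0.820 to 2.68 CPM per kilobase by gene and genotype). The basement membrane chain Col4a1 stood at 7.36 and the type III collagen gene Col3a1 at 7.28 CPM per kilobase. Col1a1, the main chain of type I collagen, came only at place 23 of 60, at 1.22 CPM per kilobase. By CPM, 5 of the 60 genes averaged at least 50 CPM, 12 from 10 to under 50, 33 from 1 to under 10 and 10 under 1 CPM.

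**Figure D1:**
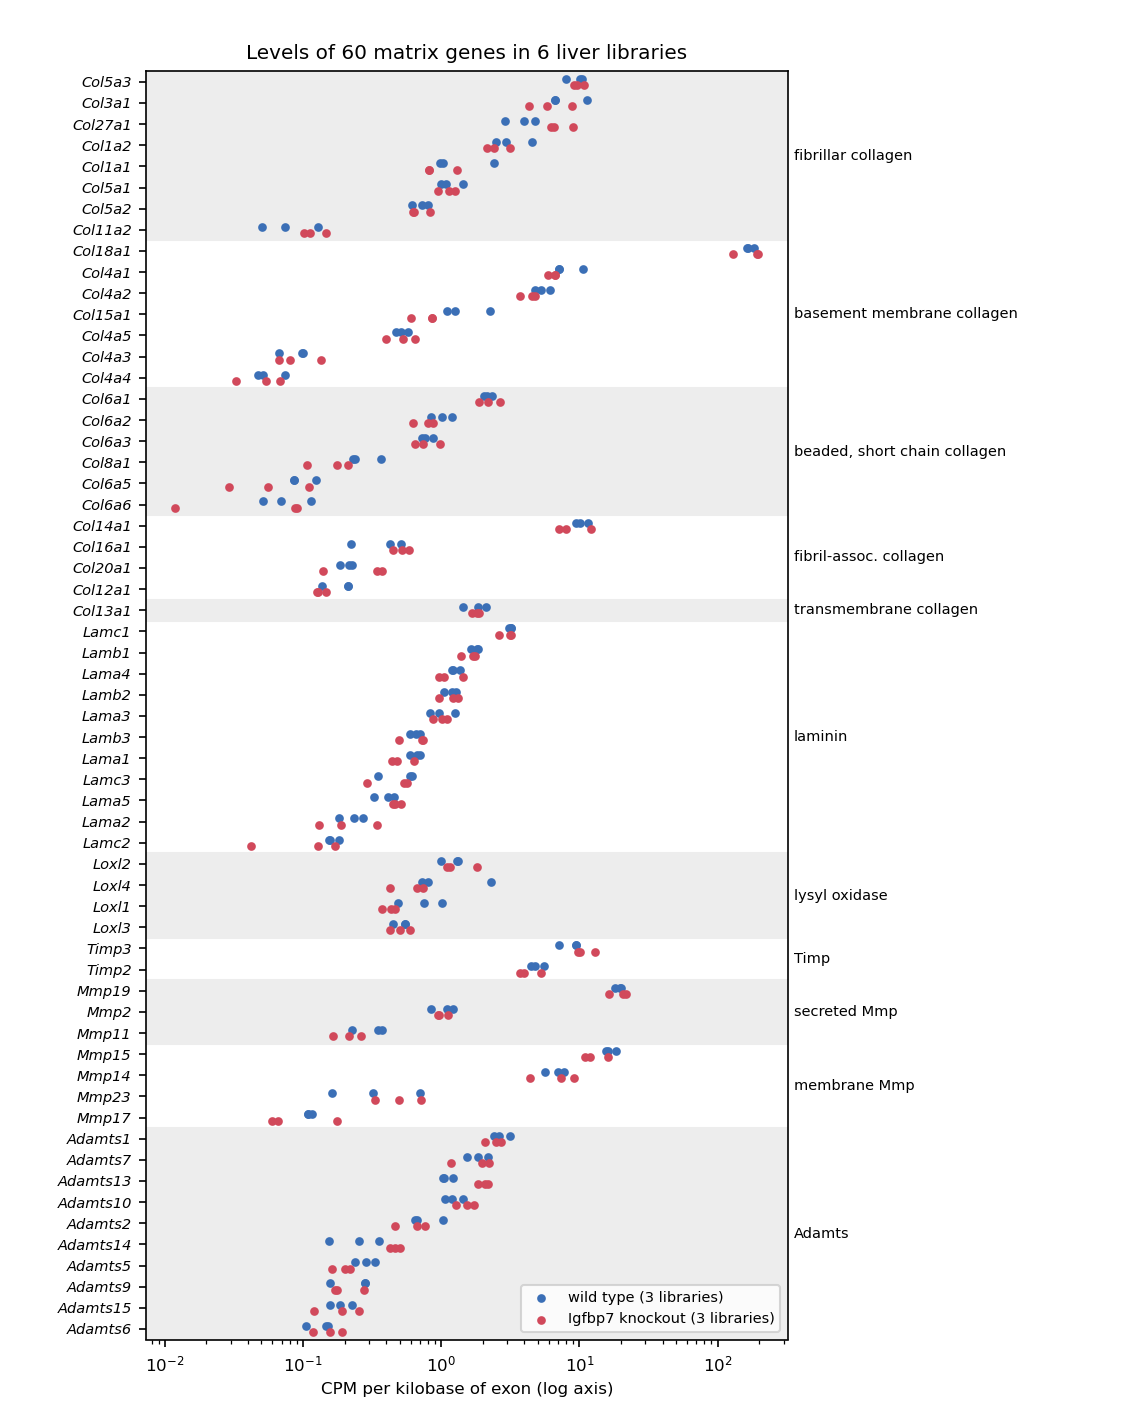
Level of each of the 60 matrix genes in each library as CPM per kilobase of exon on a log axis, grouped by role, with wild type in blue and knockout in red. Col18a1, at an average of 172 CPM per kilobase, lies far to the right of Mmp19 at 19.4, and most genes have overlapping blue and red points.

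The other 45 genes had too few reads to compare. Of these, 10 had a count of 0 in all 6 libraries: Adamts19, Adamts20, Col11a1, Col2a1, Col6a4, Col9a1, Mmp10, Mmp1a, Mmp1b and Mmp20. A count of 0 over the 117592044 reads of the 6 libraries allows a level of up to 0.0255 CPM, counting error only. Several are cartilage collagens (Col2a1, Col9a1, Col11a1), and Mmp20 is the enamel protease. The other 35 had 1 to 61 reads in all. Timp1, the inhibitor that marks activated stellate cells and inflammation, had 1, 1 and 0 reads in wild type libraries and 1, 0 and 2 reads in knockout libraries, so its response to the knockout was not detectable at this depth. Lox had 11, 8 and 6 reads against 6, 5 and 6 reads. Mmp9, the gelatinase of neutrophils and macrophages, and Adamts4, an aggrecanase, lay just outside the filter. Mmp9 had 13, 18 and 9 reads in wild type libraries and 7, 5 and 9 in knockout libraries, and Adamts4 had 23, 7 and 11 against 5, 7 and 3. Mmp28, a metalloproteinase also called epilysin, had 10, 12 and 9 reads against 4, 3 and 5. Just inside the filter lay Col4a4, with 9, 11 and 13 reads against 7, 10 and 14, and Mmp11, with 16, 17 and 9 reads against 8, 11 and 10.

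No matrix gene passed the test between genotypes over all genes. The threshold was an adjusted p under 0.05 (edgeR's quasi-likelihood test, Benjamini-Hochberg over 12594 genes), and 0 of 60 matrix genes passed it, where 0.214% of all tested genes did (0.127% higher and 0.0873% lower in the knockout). With p under 0.05 before adjustment there were 10 of 60, against 15.4% of all tested genes. Of these, 3 were higher in the knockout, against a background of 8.04%, and 7 were lower, against 7.32%. The median log2 fold change of the 60 genes was -0.07, and over all tested genes 0.001. DESeq2 called 3 of the 60 (Adamts13, Col27a1 and Col15a1) where it called 3.41% of all genes. The genotypes did not overlap for 10 of the 60 genes, against 20.7% of all genes. In 4 of them all knockout values were above (Adamts13, Adamts14, Col27a1 and Timp3, against 10.6% of all genes), and in 6 below (Adamts5, Col15a1, Col4a1, Col4a2, Col8a1 and Loxl1, against 10.1%). The estimate was below 0 for 38 of the 60, or 63.3%, against 49.8% of all genes. The shares with a low p or without overlap were near those of all genes.

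**Figure D2:**
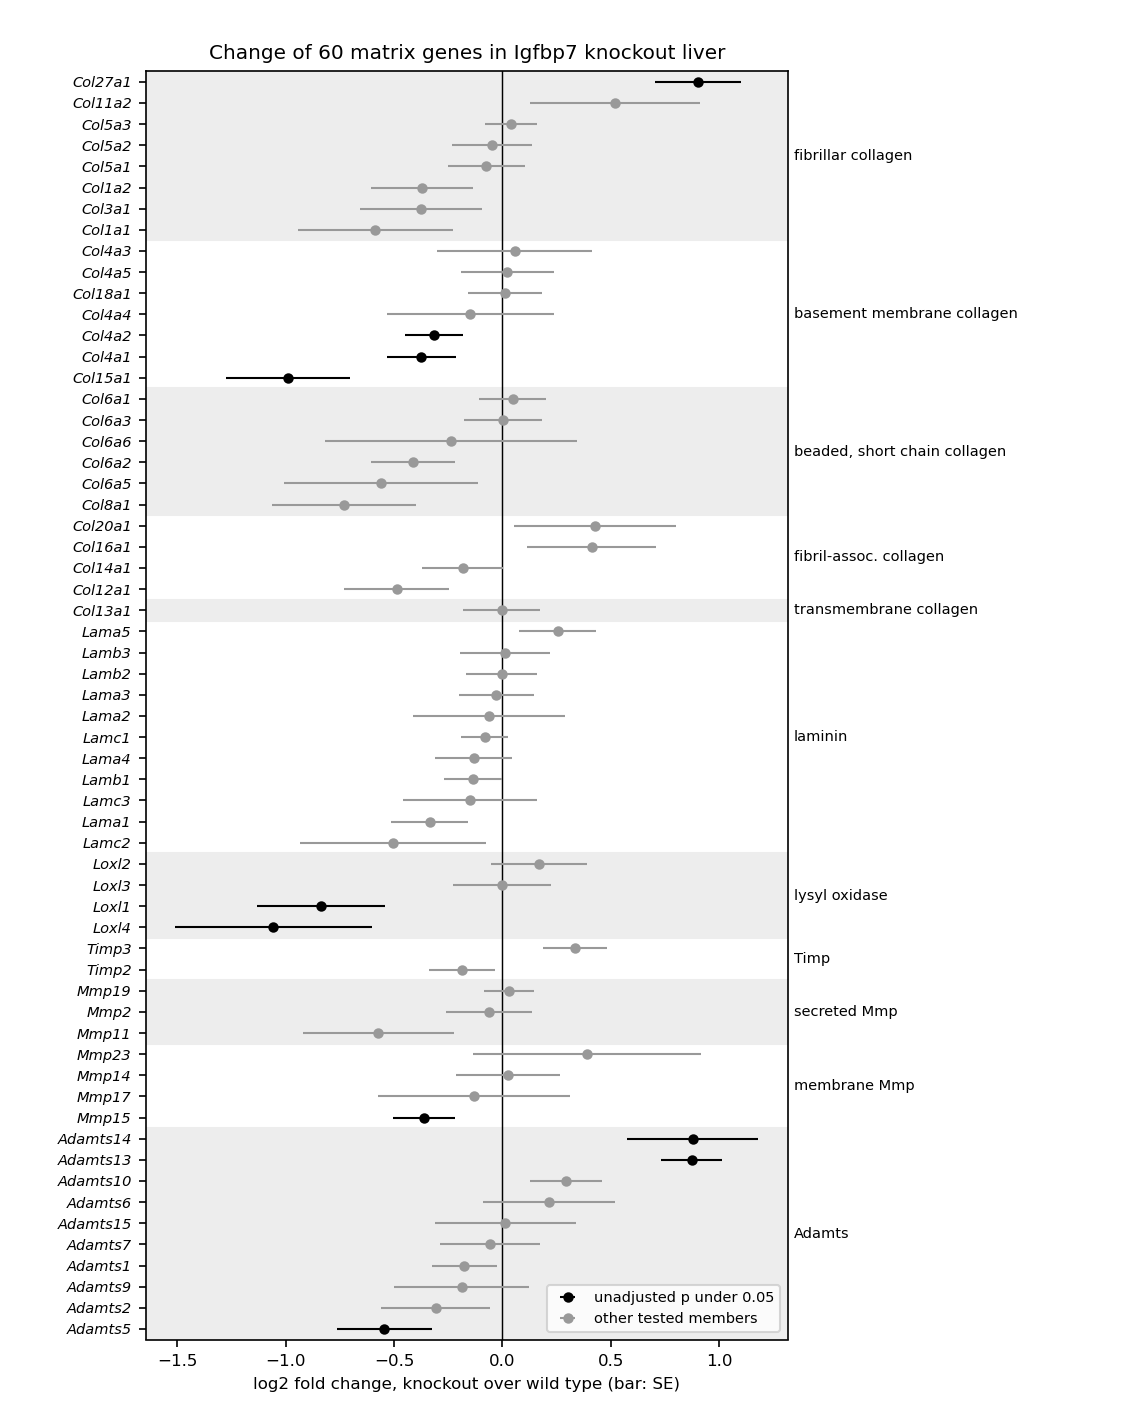
Log2 fold change of each of the 60 matrix genes, knockout over wild type, with its standard error from the edgeR fit, grouped by role. The 10 genes with p under 0.05 before adjustment are black, 3 to the right of 0 and 7 to the left, and none of the 60 has an adjusted p under 0.05.

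Many of the matrix genes also shifted the same way between libraries of 1 genotype. Each gene's log2(CPM + 0.5) was set against its own mean over the 6 libraries. In wild type replicate 1 the median of the 60 genes was 0.10 above that mean and in knockout replicate 3 it was 0.14 above, while in knockout replicates 1 and 2 it was -0.13 and -0.16. Wild type replicates 2 and 3 lay at -0.01 and -0.03. Over all 12594 tested genes the same medians ran from -0.001 to 0.008, but TMM scaling on these genes holds them near 0. Whether shifts of this size are unusual for 60 genes was not tested. Wild type replicate 1 was the highest of the 6 libraries for 19 matrix genes, or 31.7%, where it was highest for 19.9% of all tested genes. Knockout replicate 3 was highest for 18, or 30.0%, against 19.2% of all tested genes. Knockout replicates 1 and 2 were lowest for 20 and 19 genes, or 33.3% and 31.7%, against 16.8% and 19.5% of all tested genes. So 1 library of each genotype was high by the median gene, and the genotypes overlapped. Of the 60 genes, 46 lay above their mean in wild type replicate 1 and 41 in knockout replicate 3. The summed level did not follow the median in knockout replicate 3. With Col18a1 at 871 CPM, that library had the lowest matrix sum of the 6, at 1687 CPM. Its sum without Col18a1 was 816 CPM.

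**Figure D3:**
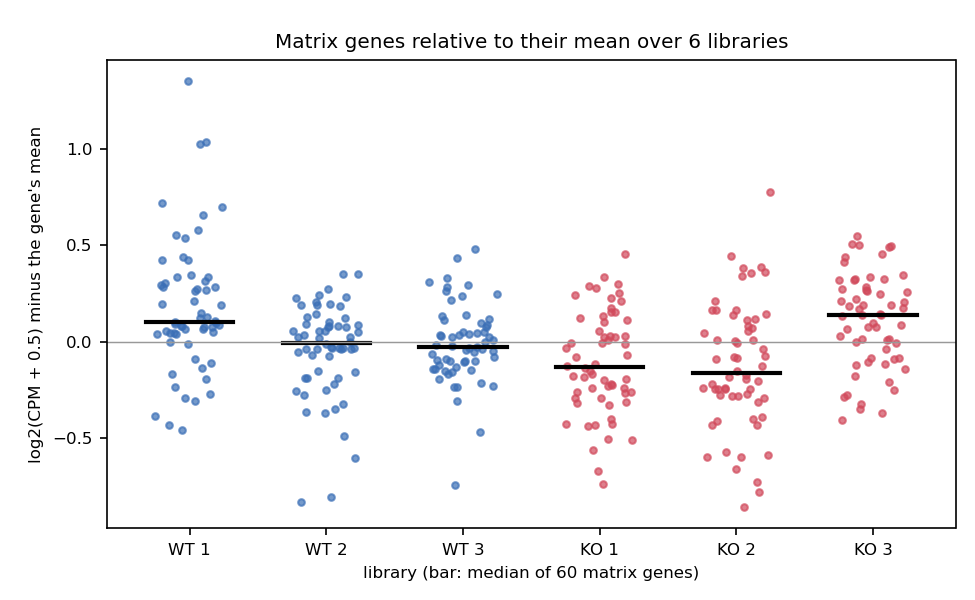
Each point is 1 of the 60 matrix genes, as log2(CPM + 0.5) minus the gene's mean over 6 libraries, and black bars are medians. Wild type replicate 1 (median 0.10) and knockout replicate 3 (median 0.14) sit above the other 4 libraries, whose medians lie from -0.16 to -0.01.

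Among the fibrillar collagens, the rope-forming chains, 8 of 11 were compared and 0 passed, with 3 higher and 5 lower and a median log2 fold change of -0.06. Col27a1, a fibrillar chain best known from cartilage, stood apart from type I and III collagen. It was at 30.3, 22.1 and 36.1 CPM in wild type libraries and at 47.3, 68.3 and 49.7 CPM in knockout libraries. All knockout values were above all wild type values, with a log2 fold change of 0.90 ± 0.20 (SE; adjusted p = 0.098 by edgeR, and adjusted p = 0.00114 by DESeq2). The type I and III chains were high in wild type replicate 1 instead. Col1a1 was at 14.2, 5.84 and 6.06 CPM in wild type libraries and 4.83, 4.86 and 7.66 CPM in knockout libraries. Col1a2, its partner chain, was at 24.5, 13.4 and 15.7 CPM against 11.5, 12.9 and 16.9 CPM, and Col3a1 at 63.1, 36.8 and 37.2 against 24.1, 32.6 and 49.0 CPM. In all 3 genes the genotypes overlapped. Their log2 fold changes of -0.59, -0.37 and -0.38 became -0.04, -0.08 and -0.07 without wild type replicate 1.

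Ratios between chains do not depend on library scaling. Per kilobase, Col1a1 stood at 0.422 ± 0.091 of Col1a2 in wild type libraries and 0.375 ± 0.034 in knockout liver (SD, n = 3 each), although the type I collagen trimer holds more Col1a1 than Col1a2 chains. The lengths come from annotation GENCODE vM21, which may differ from the one the authors counted on. Type V collagen, which helps start fibrils, was carried mostly by Col5a3 at 58.4 ± 7.90 CPM in wild type libraries and 59.96 ± 5.02 CPM in knockout liver (SD, n = 3 each). Col11a2, among the largest upward estimates, stayed under 1 CPM in all 6 libraries (log2 fold change 0.52 ± 0.39, SE, adjusted p = 0.578 by edgeR). Its estimate was 0.27 without wild type replicate 1 and 0.92 without wild type replicate 3.

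Of the basement membrane collagens, 7 of 9 were compared and 3 had p under 0.05 before adjustment, all lower in the knockout, where 7.32% of all tested genes were. Without wild type replicate 1 only Col15a1 of these 3 had such a p, where 4.78% of all genes were lower. Col15a1, a relative of Col18a1 found in the basement membrane of capillaries and other vessels, stood at 13.7, 7.57 and 6.58 CPM in wild type libraries and at 3.65, 5.19 and 5.202 CPM in knockout libraries. Every knockout value was below every wild type value, with wild type replicate 1 far above the rest (log2 fold change -0.99 ± 0.29, SE, adjusted p = 0.167 by edgeR and 0.0243 by DESeq2). Without that library the log2 fold change was -0.60 ± 0.21 (SE, adjusted p = 0.373 by edgeR). Col4a1 and Col4a2 encode the partner chains of the common type IV collagen network and lie head to head, with overlapping starts in RefSeq, so reads from the shared stretch may be lost or miscounted. Col4a1 was at 70.3, 47.4 and 47.1 CPM in wild type libraries and 43.7, 39.4 and 44.0 CPM in knockout libraries. Col4a2 was at 39.2, 31.0 and 34.1 CPM against 30.8, 29.0 and 23.9 CPM. The groups did not overlap for either gene, though by a narrow margin, 31.0 against 30.8 CPM, for Col4a2. Log2 fold changes were -0.37 ± 0.16 and -0.32 ± 0.13 (SE), with adjusted p of 0.311 and 0.304 by edgeR, and that of Col4a1 was -0.16 without wild type replicate 1. The ratio of Col4a1 to Col4a2 per kilobase was 1.53 ± 0.20 in wild type libraries and 1.501 ± 0.26 in knockout liver (SD, n = 3 each). Col18a1 had an adjusted p of 0.985 by edgeR.

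Type VI collagen forms beaded filaments from several chains. Col6a1 and Col6a3 stood near 9 CPM in both genotypes, at 8.91 ± 0.61 and 8.55 ± 0.81 CPM in wild type libraries and 9.20 ± 1.59 and 8.56 ± 1.93 CPM in knockout liver (SD, n = 3 each). Col6a2 was at 7.23, 6.08 and 5.08 CPM in wild type libraries and 5.21, 3.77 and 4.81 CPM in knockout libraries (adjusted p = 0.356 by edgeR). The log2 fold change of Col6a2 was -0.28 without wild type replicate 1. The ratio of Col6a1 to Col6a2 per kilobase was 1.94, 2.12 and 2.41 in wild type libraries and 2.52, 3.02 and 3.32 in knockout libraries, so the groups did not overlap. The ratios of Col1a1 to Col1a2, Col3a1 to Col1a1 and Col4a1 to Col4a2 overlapped. Levels of single genes did not overlap for 20.7% of all tested genes, and no such share was computed for ratios. An exact test of 3 libraries against 3 cannot reach the 0.05 threshold, and none was run. Col8a1, a short-chain collagen of vessel walls, stood at 1.86, 1.17 and 1.21 CPM against 0.900, 0.546 and 1.08 CPM, a log2 fold change of -0.73 ± 0.33 (SE, adjusted p = 0.345 by edgeR), and of -0.49 without wild type replicate 1.

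Fibril-associated collagens sit on the surface of fibrils. Col14a1 was at 73.9, 64.9 and 60.9 CPM in wild type libraries and 45.7, 51.9 and 78.2 CPM in knockout libraries, and the highest value was in a knockout library. Col12a1 stood at 2.27 ± 0.51 and 1.62 ± 0.13 CPM, Col16a1 at 2.003 ± 0.77 and 2.69 ± 0.37 CPM and Col20a1 at 1.07 ± 0.11 and 1.46 ± 0.65 CPM (SD, n = 3 each, wild type first). None of the 4 compared passed the test. Col20a1 had a log2 fold change of 0.43 ± 0.37 (SE) with overlapping groups. Of the transmembrane collagens only Col13a1 could be compared, at 5.75 ± 1.11 and 5.74 ± 0.35 CPM, and Col17a1, Col23a1 and Col25a1 were under 0.5 CPM in every library. Col23a1 had 8, 9 and 6 reads in wild type libraries and 6, 3 and 3 in knockout libraries.

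All 11 laminin genes had enough reads, and 0 had p under 0.05 before adjustment, where 15.4% of all tested genes did. Laminins are cross-shaped trimers of an alpha, a beta and a gamma chain. Lamc1, the gamma chain shared by most laminins, was the highest by CPM, at 24.5, 24.3 and 23.6 CPM in wild type libraries and 23.8, 20.0 and 24.5 CPM in knockout libraries. The alpha chains together made 3.55 ± 0.18 CPM per kilobase in wild type libraries and 3.35 ± 0.29 in knockout liver, the beta chains 3.59 ± 0.14 and 3.44 ± 0.09, and the gamma chains 3.85 ± 0.12 and 3.56 ± 0.53 (SD, n = 3 each). The 3 sums were thus of like size within each genotype. Lama3 stood at 10.9 ± 2.3 and 10.7 ± 1.3 CPM, Lamb1 at 10.3 ± 0.6 and 9.44 ± 1.14 CPM and Lama4, an endothelial alpha chain, at 7.59 ± 0.60 and 6.92 ± 1.51 CPM (SD, n = 3 each, wild type first). Log2 fold changes of the 11 ran from -0.50 to 0.25, with 2 above and 9 below 0, against 49.8% of all tested genes below 0.

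Lysyl oxidases cross-link collagen and elastin fibres. Loxl1, needed for elastic fibre upkeep, stood at 3.35, 2.48 and 1.62 CPM in wild type libraries and 1.23, 1.42 and 1.52 CPM in knockout libraries, with no overlap (log2 fold change -0.84 ± 0.30, SE, adjusted p = 0.233 by edgeR). Without wild type replicate 1 its log2 fold change was -0.57 ± 0.30 (SE). Loxl4 was at 8.61, 2.99 and 2.71 CPM against 2.75, 1.58 and 2.50 CPM, so its low mean in knockout liver came with 1 high wild type library. Its log2 fold change of -1.06 ± 0.45 (SE) was -0.32 ± 0.28 (SE) without wild type replicate 1. Loxl2, the highest of the family by CPM, stood at 6.53 ± 0.96 and 7.35 ± 2.18 CPM, and Loxl3, which overlaps Htra2, at 2.10 ± 0.24 and 2.09 ± 0.35 CPM (SD, n = 3 each, wild type first).

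**Figure D4:**
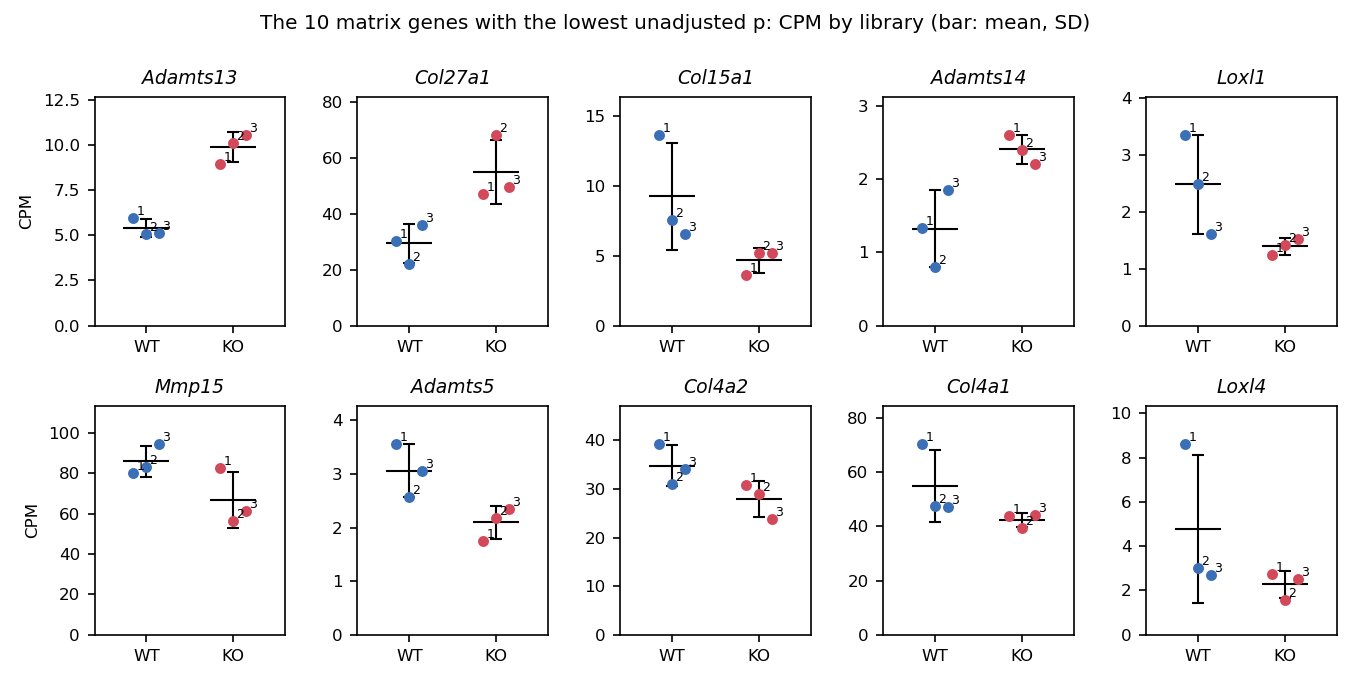
CPM of the 10 matrix genes with the lowest unadjusted p, in order, by library (points, numbered by replicate) with the mean and SD of each genotype. The genotypes overlap for Mmp15 and Loxl4 and do not for the other 8, where they do not for 20.7% of all tested genes. Picking genes by a low p favours such separation. Wild type replicate 1 lies far above the other 5 libraries for Loxl4 (8.61 CPM) and Col15a1 (13.7 CPM).

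Timp2 and Timp3 were the inhibitors present. Timp3, which also inhibits Adamts enzymes, stood at 33.7, 44.6 and 44.4 CPM in wild type libraries and 45.9, 48.0 and 60.9 CPM in knockout libraries. All knockout values lay above all wild type values, with 45.9 and 44.6 CPM as the nearest pair, and the log2 fold change was 0.34 ± 0.15 (SE, adjusted p = 0.328 by edgeR). It was 0.21 without wild type replicate 1 and 0.20 without knockout replicate 3. Timp3 lies within Syn3 in RefSeq. Timp2, at 18.2 ± 2.1 and 16.0 ± 3.0 CPM (SD, n = 3 each, wild type first), overlapped between genotypes.

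The metalloproteinases present were mainly Mmp15, Mmp19 and Mmp14. Mmp15 was at 80.3, 83.0 and 94.6 CPM in wild type libraries and 82.5, 56.4 and 61.6 CPM in knockout libraries. Knockout replicate 1 lay within the wild type range, and the log2 fold change was -0.36 ± 0.14 (SE, adjusted p = 0.283 by edgeR). Mmp19, which overlaps Tmem198b, stood at 66.2 ± 3.5 and 67.5 ± 9.6 CPM, and Mmp14, the activator of Mmp2 at the cell surface, at 28.5 ± 4.4 and 29.1 ± 9.98 CPM (SD, n = 3 each, wild type first). Mmp2, the gelatinase of stromal cells, stood at 3.23 ± 0.57 and 3.11 ± 0.29 CPM (SD, n = 3 each). Per kilobase, the Timp genes summed to 0.278, 0.302 and 0.317 of the Mmp genes in wild type libraries and to 0.320, 0.359 and 0.407 in knockout libraries. These ratios did not overlap, but wild type replicate 3 and knockout replicate 1 were nearly equal. Levels of single genes did not overlap for 20.7% of all tested genes. No test was run on them.

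Adamts genes gave the lowest p of all the matrix genes and 3 of the 10 lowest. They made up 10 of the 60 genes compared. Of the 3, Adamts13 and Adamts14 were higher in the knockout and Adamts5 was lower. Whether the family stood out was not tested. Adamts13, the protease that cuts von Willebrand factor and is made in the liver mainly by stellate cells, stood at 5.95, 5.05 and 5.14 CPM in wild type libraries and at 8.95, 10.1 and 10.6 CPM in knockout libraries. The groups were far apart compared with their spread, with a log2 fold change of 0.87 ± 0.14 (SE), or 1.83-fold. Its p had rank 38 among the 12594 genes and its adjusted p was 0.0582 by edgeR, just above the threshold. It was under it without a count filter (adjusted p = 0.0273 by edgeR), with robust estimation (adjusted p = 0.0415 by edgeR) and by DESeq2 (adjusted p = 0.000445). The estimate was 0.95 ± 0.17 (SE, adjusted p = 0.131 by edgeR) without wild type replicate 1. Of the stellate cell markers 0 of 11 passed the test, where 0.214% of all tested genes did. In the knockout 4 were higher and 7 lower, where 49.8% of all tested genes were lower. Of the lower, 1 had p under 0.05 before adjustment, against 7.32% of all tested genes. This was Ngfr (6.82 ± 1.97 against 3.89 ± 0.62 CPM, SD, n = 3 each; adjusted p = 0.167 by edgeR), highest in wild type replicate 1 at 8.88 CPM. The 12 stellate cell markers in the files summed to 350 to 377 CPM in wild type libraries and 315 to 387 CPM in knockout libraries, with none at 0 throughout. Their part in the Adamts13 result was not tested.

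Adamts14, which trims the amino end of procollagens, was lower in level. It was at 1.33, 0.795 and 1.85 CPM in wild type libraries and 2.60, 2.40 and 2.21 CPM in knockout libraries, without overlap (log2 fold change 0.88 ± 0.30, SE, adjusted p = 0.226 by edgeR). Adamts2, with the same activity, stood at 5.68 ± 1.58 and 4.596 ± 1.13 CPM (SD, n = 3 each, wild type first). Adamts5, a protease of large proteoglycans, was at 3.56, 2.57 and 3.06 CPM against 1.75, 2.18 and 2.36 CPM, again without overlap (log2 fold change -0.54 ± 0.22, SE, adjusted p = 0.285 by edgeR). Adamts1, the highest by CPM, stood at 13.3 ± 1.9 and 11.8 ± 1.6 CPM, Adamts7 at 10.7 ± 1.8 and 10.2 ± 3.1 CPM and Adamts10 at 7.39 ± 1.11 and 9.05 ± 1.32 CPM (SD, n = 3 each, wild type first).

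Leaving out wild type replicate 1 removed most of the lower genes from those with a low p. With p under 0.05 before adjustment there were then 5 of 60 genes, where 10.9% of all genes were, and 0 passed the threshold, where 0.0397% of all genes did. The 3 higher genes were Adamts13, Col27a1 and Adamts14 as before, against 6.07% of all genes. The 2 lower ones were Col15a1 and Mmp15, against 4.78% of all genes, in place of 7 with all libraries. Loxl1, Loxl4, Adamts5, Col4a1 and Col4a2 no longer had p under 0.05 before adjustment. The number of lower genes also fell to 2 when knockout replicate 2 was left out instead. The fall was thus not particular to wild type replicate 1.

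**Figure D5:**
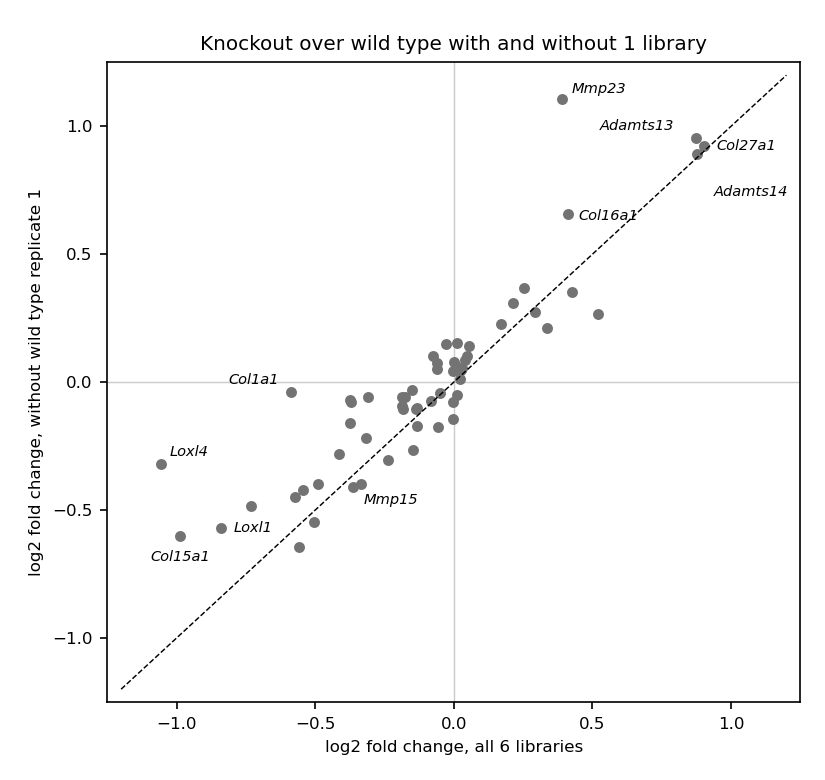
Log2 fold change of each of the 60 matrix genes with all 6 libraries (horizontal) and without wild type replicate 1 (vertical), with the line of equality dashed. Loxl4 (-1.06 to -0.32), Col1a1 (-0.59 to -0.04) and Col15a1 (-0.99 to -0.60) move toward 0, while Adamts13 and Col27a1 stay near the line.

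Genes that work with these proteins gave 0 calls in each of 6 lists. The counts of low p in these lists stand against 8.04% of all tested genes higher and 7.32% lower with p under 0.05 before adjustment. Of 20 compared genes of collagen folding and processing, 1 was higher and 2 lower with p under 0.05 before adjustment, with a median log2 fold change of -0.13. Bmp1, which removes the carboxyl end of procollagens, stood at 114 ± 12 CPM in wild type libraries and 149 ± 8 CPM in knockout liver (SD, n = 3 each; adjusted p = 0.142 by edgeR). The lower ones were Glt25d2, a collagen galactosyltransferase, at 1.83 ± 0.35 and 0.899 ± 0.298 CPM, and Pcolce2, an enhancer of procollagen cleavage, at 3.22 ± 0.70 and 2.001 ± 0.52 CPM (SD, n = 3 each). Of 12 basement membrane partners 1 was higher and 1 lower. Hspg2, the gene of perlecan, stood at 41.9 ± 1.3 and 36.4 ± 1.6 CPM and Sned1 at 8.79 ± 1.73 and 12.2 ± 1.2 CPM (SD, n = 3 each, wild type first).

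Of 30 matrix glycoproteins and elastic fibre genes, 1 was higher and 5 lower with p under 0.05 before adjustment (8.04% and 7.32% of all tested genes), with a median log2 fold change of -0.26. Spon2 had the lowest p of them, at 15.5 ± 7.6 and 5.42 ± 2.71 CPM, followed by Tnc, the tenascin of remodelling matrix, at 1.56 ± 0.33 and 0.865 ± 0.089 CPM (SD, n = 3 each; adjusted p = 0.144 and 0.193 by edgeR). Of 11 small and chondroitin sulfate proteoglycans 1 was higher (Omd, adjusted p = 0.171) and 1 lower (Srgn, adjusted p = 0.181 by edgeR). Of 18 receptors of collagen, laminin or other matrix proteins 1 was higher and 4 lower. Among the lower was the fibronectin receptor chain Itga5, at 34.0 ± 4.0 and 25.4 ± 2.6 CPM (SD, n = 3 each). Itga7, a laminin receptor chain, was the higher one, at 8.17 ± 0.58 and 11.1 ± 1.5 CPM (SD, n = 3 each). Of 22 genes of the plasminogen system and other proteases 1 was higher and 1 lower. The lower one was Ctss, a cathepsin of macrophages and antigen-presenting cells, at 51.6 ± 3.5 and 30.3 ± 6.1 CPM (SD, n = 3 each; adjusted p = 0.0739 by edgeR and 0.000374 by DESeq2).

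Markers of the cell types that liver can hold were read beside these genes. Their counts of lower genes stand against 49.8% of all tested genes, and against 7.32% with p under 0.05 before adjustment. Kupffer cell and macrophage markers had 0 of 11 past the threshold, but all 11 were lower with p under 0.05 before adjustment, where 7.32% of all tested genes were. These markers summed to 684 to 771 CPM in wild type libraries and 361 to 565 CPM in knockout libraries. This list, like the others, was chosen with earlier results of these data known, so the count is a description only. Cholangiocyte markers had 5 of 8 compared, all 5 lower, and the 8 summed to 76.2 to 105 CPM against 47.9 to 59.4 CPM. Most of this sum came from Spp1, at 85.1 ± 13.1 and 48.1 ± 5.3 CPM (SD, n = 3 each). Spp1 was the 1 with p under 0.05 before adjustment, while Krt7, Krt19, Epcam and Sox9 overlapped between genotypes. Portal fibroblast and smooth muscle markers had 7 of 9 compared, 6 lower and 1 of those with p under 0.05 before adjustment, with sums of 27.5 to 36.9 CPM against 21.8 to 29.1 CPM. Endothelial markers had 12 of 12 compared, 8 lower and 1 with p under 0.05 before adjustment, with sums of 625 to 660 CPM against 587 to 662 CPM. Mesothelial markers, 3 of 5 compared and all higher, 1 of them with p under 0.05 before adjustment (8.04% of all tested genes), summed to 3.23 to 5.14 CPM against 4.40 to 8.24 CPM, and 7 neutrophil markers, 1 of them compared, to 0.608 to 2.29 CPM against 0.546 to 0.758 CPM. None of the markers in these lists was at 0 in all 6 libraries. Their part in the matrix results was not tested.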

How the data were processed

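The authors deposited 1 table of raw read counts per gene symbol for each of the 6 libraries. Tools listed in the submitters' processing notes are TopHat2 2.0.8b, HTSeq and CASAVA 1.8.2. Builds hg19 and mm9 are both listed, without saying which served what. Neither annotation nor strand setting is given in the sources used here. Reads of a gene and of an overlapping antisense gene may therefore be mixed. In each file 5 closing rows name no gene and were left out; reads outside genes were 9.65% to 12.5% of uniquely placed reads. Reads with several placements form 1 of these rows.

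The test was that of edgeR 4.0.16 (R 4.3.3), on genes reaching 10 counts in 3 or more libraries: TMM scaling, a quasi-likelihood model with genotype as the only term, 2-sided tests, Benjamini-Hochberg over 12594 genes. Standard errors were derived from the F statistic. DESeq2 1.42.0, limma-voom (limma 3.58.1), other scalings, filters, a replicate block and each library left out were alternatives. Exon lengths come from GENCODE vM21, overlaps and upstream sequences from RefSeq GRCm38.p6. The matrix genes and lists were chosen with earlier results of these data known. Genes named are the 10 lowest p, the 5 largest changes each way, the 4 highest by CPM in each role, those nearest the filter, and up to 4 per partner list. Other genes named, among them Adamts2, Lox, Mmp28, the genes at 0, Arntl and the overlapping genes, were chosen after their values were seen.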

Additional observations from a re-analysis of the deposited data

How the results depend on the processing

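Depth leaves 45 of the 105 matrix genes, Timp1 and Lox among them, without a comparison. The number of matrix genes past the threshold, 0 in the comparison reported, was 1 without a filter, 1 with robust estimation (Adamts13 in both, adjusted p = 0.0273 and 0.0415) and 3 with DESeq2, and 0 under the other alternatives. For all genes the count of 27 became 133 without a filter, 429 with DESeq2 and 68 with robust estimation, and ranged from 3 to 34 with 1 library left out (5 or 4 when wild type replicate 1 or 2 was dropped, and 3 or 13 when knockout replicate 2 or 3 was). With 1 library left out, 2 to 5 matrix genes were higher and 2 to 8 lower with p under 0.05 before adjustment; the 2 lower came without wild type replicate 1 or knockout replicate 2, and the 5 higher without knockout replicate 1. Their median log2 fold change ranged from -0.19 to -0.04. Equal replicate numbers do not pair the samples by the labels, and deviations of same-numbered libraries correlated at -0.085, -0.094 and -0.039 over 12594 genes. With the replicate block, 1 gene in all and 0 matrix genes passed, 4 matrix genes were higher and 6 lower with p under 0.05 before adjustment, and the median was -0.09. No log2 fold change that the text prints for a single gene changed sign under any alternative in which it could be computed. Without wild type replicate 1 the estimates near 0 of Col5a1, Lama2, Lama3, Lamb3, Loxl3 and Mmp2 did.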
